A study of Mus musculus with 2 samples.

Results

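The genes described here encode 9 subunits of the protein translocation machinery of the endoplasmic reticulum: Sec61a1, Sec61b and Sec61g of the Sec61 channel, Ssr1, Ssr2, Ssr3 and Ssr4 of the translocon-associated protein complex (TRAP), and the channel partners Sec62 and Sec63. All transcript models that carry one of these gene names were taken, which gave 59 of the 92074 models of replicate 2 and 61 of the 88152 models of replicate 1, for 9 of the 16674 annotated genes with reads in either library. Adrenal gland tissue of the mouse strain C57BL/6J gave the total RNA for both long-read libraries, biological replicates 2 and 1 of a single group, in which 1 read shows which exons of a transcript were joined. Both carry a label that names wild-type females, the sex field reads not collected, the age is unknown, and there is no treatment, transgene or second group, so nothing can be compared between conditions. The replicates are separate biosamples, but whether tissue of several animals was pooled is not given in the sources used here.

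Secretory and membrane proteins enter the endoplasmic reticulum through the Sec61 channel, whose alpha subunit forms the pore and whose beta and gamma subunits are small membrane proteins around it. TRAP binds beside the channel and helps certain signal sequences to open it, and Sec62 and Sec63 serve substrates that need more help to engage the channel, Sec63 by recruiting the lumenal chaperone BiP. In the adrenal gland the granins and granule proteins of chromaffin cells and the microsomal enzymes of steroid synthesis depend on this entry route.

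The depth was 587861 reads in replicate 2 and 810239 reads in replicate 1. Levels are given in CPM, the reads of a gene scaled to a common library total. A count of 0 allows up to 3 reads, which is 5.10 CPM in replicate 2 and 3.70 CPM in replicate 1. The markers of the labelled tissue were present: 6 of 6 cortex markers and 5 of 5 medulla markers had reads in both libraries, with summed levels of 90942 CPM in replicate 2 and 77322 CPM in replicate 1 for the cortex, and 8495 and 6193 CPM for the medulla. Markers of macrophages, endothelium, fibroblasts, adipocytes and red cells were all detected too, 9 of 9, and summed to 764 CPM in replicate 2 and 2677 CPM in replicate 1. Single markers of a class went opposite ways, by log2 ratios of replicate 2 over replicate 1 scaled as given below. For fibroblasts Col1a1 stood at 2.31 and Dcn at -2.94, and for the medulla Dbh at 2.40 and Th at -1.67. Whether the sums reflect cell makeup was not tested. In bulk tissue fewer cells of a type and less RNA per cell cannot be told apart. The part of cell makeup in the results on the translocon genes was not tested.

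Sequences within the coding region carry 2 of the structural results given further on. They were read from the GENCODE M21 transcripts (mm10), 5′ to 3′ on the strand of the gene. The first is the junction of exons 1 and 2 of Ssr4 (plus strand of chromosome X) in its 2 annotated forms, which use acceptors 3 bases apart. Capitals mark the 3 bases that only the longer form holds:
Ssr4-208: cttgctgctcagCAGaggcctgcctgg
Ssr4-201: cttgctgctcagaggcctgcctgg
The second is the end of exon 3 of Sec61g (chr11:16504736-16504759, minus strand). Capitals mark the 2 bases that an unannotated donor leaves out:
Sec61g exon 3, last bases: tatacccattaataacattattGT

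The 9 genes together took almost the same share of each library, 1883 CPM in replicate 2 and 1774 CPM in replicate 1 (1107 and 1437 reads), but its makeup was nearly turned over. Ssr3, Ssr1 and Sec61a1 were the most read genes of the set in replicate 2 and stood in places 7, 6 and 8 of 9 in replicate 1. Sec61b, Sec61g and Ssr4 led or stood high in replicate 1 and had at most 20 reads each in replicate 2, where Ssr2 had none. The genes were chosen by name with their read counts in these libraries known, so the differences between the libraries are given as a description. No p-value is printed, and the calls of the tests given below are description too. Folds and log2 ratios are of replicate 2 and replicate 1 after TMM scaling of library sizes, with 95% intervals from the binomial share, and cover counting error only.

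Sec61a1 (ENSMUSG00000030082.14, chromosome 6, 88503579 to 88518905, minus strand), the pore subunit, had 144 reads in replicate 2 and 65 in replicate 1, or 245 and 80.2 CPM. It was 2.20-fold higher in replicate 2 (1.63 to 3.0). Sec61b (ENSMUSG00000053317.11, chromosome 4, 47474658 to 47483242, plus strand), the beta subunit, had 20 reads in replicate 2 and 315 in replicate 1, or 34.0 and 389 CPM. It was 15.8-fold lower in replicate 2 (10.1 to 26.3). Sec61g (ENSMUSG00000078974.10, chromosome 11, 16500530 to 16508484, minus strand), the gamma subunit, had 7 reads in replicate 2 and 243 in replicate 1, or 11.9 and 299.9 CPM, and was 34.9-fold lower in replicate 2 (16.7 to 87.8). Sec61a1 took 84.2% of the reads of the channel genes in replicate 2 (77.9 to 89.3) and 10.4% in replicate 1 (8.14 to 13.1). The pore subunit thus led its complex in replicate 2 and came last in it in replicate 1.

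The TRAP genes split in the same manner. Ssr1 (ENSMUSG00000021427.10, chromosome 13, 37966605 to 37994217, minus strand), TRAP alpha, had 300 reads in replicate 2 and 127 in replicate 1, or 510.3 and 157 CPM, a 2.35-fold higher level in replicate 2 (1.90 to 2.91). Ssr3 (ENSMUSG00000027828.12, chromosome 3, 65379655 to 65392623, minus strand), TRAP gamma, had 592 reads in replicate 2 and 77 in replicate 1, or 1007 and 95.0 CPM, 7.64-fold higher in replicate 2 (6.02 to 9.82). Both are the members of TRAP with long transcripts.

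Ssr2 (ENSMUSG00000041355.13, chromosome 3, 88575876 to 88588419, plus strand), TRAP beta, had 0 reads in replicate 2 and 187 in replicate 1, or 231 CPM, at least 62.7-fold lower in replicate 2 when 3 reads stand for its 0. Ssr4 (ENSMUSG00000002014.12, chromosome X, 73787028 to 73790830, plus strand), TRAP delta, had 7 reads in replicate 2 and 192 in replicate 1, or 11.9 and 237 CPM, 27.6-fold lower in replicate 2 (13.1 to 69.5). Summed over the complex, TRAP reached 1529 CPM in replicate 2 and 720 CPM in replicate 1, against 291 and 769 CPM for the Sec61 channel. Which of the 2 complexes had more reads therefore depended on the library: TRAP in replicate 2, the channel in replicate 1.

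Sec62 (ENSMUSG00000027706.8, chromosome 3, 30792875 to 30821263, plus strand) had 28 reads in replicate 2 and 221 in replicate 1, or 47.6 and 273 CPM, 7.94-fold lower in replicate 2 (5.34 to 12.2), a difference that rested on 1 incomplete model described below. Sec63 (ENSMUSG00000019802.13, chromosome 10, 42761496 to 42832514, plus strand), the J-domain partner, had 9 reads in replicate 2 and 10 in replicate 1, or 15.3 and 12.3 CPM. It was the one member whose fold interval held 1 (replicate 2 over replicate 1, 0.895, 0.322 to 2.45).

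**Figure D1:**
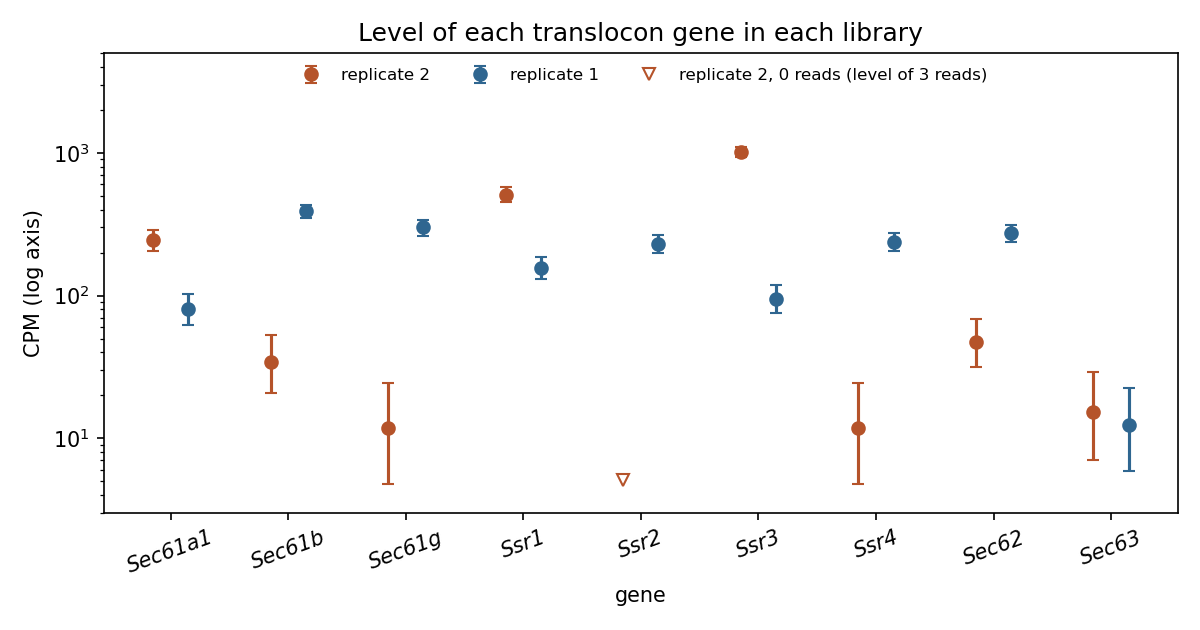
Level of each translocon gene in CPM (log axis), replicate 2 left of replicate 1, with 95% exact Poisson intervals for counting error; the open triangle marks 0 reads of Ssr2 in replicate 2 at the level of 3 reads. Ssr3, Ssr1 and Sec61a1 stood higher in replicate 2, Sec61b, Sec61g, Ssr2, Ssr4 and Sec62 stood higher in replicate 1, and the points of Sec63 overlapped.

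By their order in replicate 2, Ssr3 stood above Ssr1, and Ssr1 above Sec61a1, with exact Poisson intervals that did not overlap. Sec61a1 stood clear of the rest, among which each gene overlapped its neighbour: Sec62, Sec61b, Sec63, Sec61g and Ssr4 at equal counts, and Ssr2. In replicate 1 the order was Sec61b, then Sec61g, Sec62, Ssr4 and Ssr2, each overlapping the next, then Ssr1, then Ssr3 and Sec61a1, which overlapped, and Sec63 alone at the bottom. Among all genes with reads, Ssr3 ranked 95 in replicate 2 and 1791 in replicate 1, while Sec61b ranked 4359 and 382. These levels count reads, with 1 read for 1 cDNA whatever its length, so they are not divided by length.

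In the exact two-sided binomial test over all 9809 genes with at least 10 reads, with Benjamini-Hochberg adjustment at 0.05, 8 of the 9 genes were called, where 66.2% of all genes were. Of the 8, 3 were higher in replicate 2, against 30.6% of all genes, and 5 were higher in replicate 1, against 35.6%. The median log2 ratio of the 9 was -2.97, beside -0.01 over all genes tested. Such calls compare the reads of 2 libraries, and no difference between groups of animals can be read from them. The shares of all genes cover every gene with at least 10 reads. Genes with read numbers like those of the members were not set apart.

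The side on which a gene stood went, for most of them, with the length of its most used annotated model, as it did over all genes. The 3 genes higher in replicate 2 have models of 2957 nt (Ssr3), 3172 nt (Sec61a1) and 9333 nt (Ssr1). Sec61b has 564 nt, Ssr4 800 nt, Ssr2 1059 nt and Sec61g 1862 nt, and all 4 were higher in replicate 1. Sec62, with 3967 nt, was the long gene on the other side, and Sec63 is annotated at 6032 nt. With the trend of the log2 ratio by length removed, 5 of 9 genes were called, where 42.4% of 9173 genes were. Sec61b then stood at 0.39 and Sec61a1 at -0.25, with signs opposite to those before and no call, and Ssr4 at -0.64 was no longer called. Ssr1 at 0.62 and Ssr3 at 1.72 kept their calls toward replicate 2, and Sec61g at -3.67, Sec62 at -4.40 and Ssr2 at -4.91 toward replicate 1. The value of Ssr2 rests on a pseudocount in place of its 0 reads and is no bound. The lengths are those of annotated models: for Sec61g the last exon of 1278 nt sets it, while Sec61g-202 is annotated at 691 nt, and for Sec62 most reads of replicate 1 fell on a model of 929 nt. An unannotated 4-exon model of Sec61g, with 5 reads in replicate 1, had 387 nt. Unannotated 8-exon models of Ssr1, each with 1 read in replicate 2, had 2507 to 2520 nt. How these genes stand to the trend at such lengths was not tested.

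**Figure D2:**
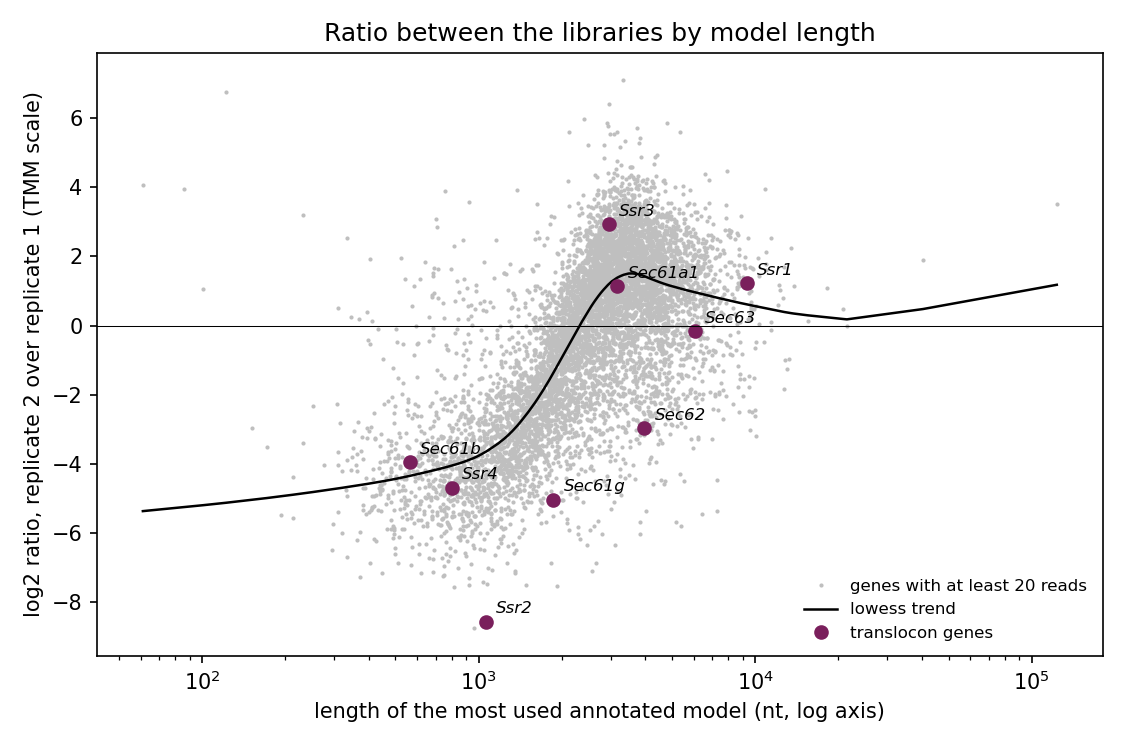
Log2 ratio of replicate 2 over replicate 1 (TMM scale) by length of the most used annotated model (nt, log axis) for the genes with at least 20 reads (grey), the lowess trend (line) and the 9 translocon genes (purple). Sec61b, Ssr4 and Sec61a1 lay near the trend, while Ssr2, Sec61g and Sec62 lay below it and Ssr3 above.

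Sec62 gave the clearest structural difference. Its full coding transcript, Sec62-201, has 8 exons and had 21 reads in replicate 2 and 17 in replicate 1. A model made of its first 4 exons only, 929 nt long, had 2 reads in replicate 2 and 197 in replicate 1, or 7.14% (0.877 to 23.5) and 89.1% (84.3 to 92.9) of the gene's reads. Along the transcript, introns 1 to 3 were spliced by 24 to 25 reads in replicate 2 and by 219 to 221 in replicate 1. Intron 4 was spliced by 25 reads in replicate 2 and by 22 in replicate 1, and introns 5 to 7 by 25 and 18. Of the reads that spliced intron 3, those that also spliced intron 4 came to 92.0% in replicate 2 (23 of 25, 74.0 to 99.0) and 9.95% in replicate 1 (22 of 221, 6.34 to 14.7). Reads over the later introns were thus close in number, and the excess of replicate 1 ended at exon 4. Without the 4-exon model Sec62 had 26 reads in replicate 2 and 24 in replicate 1, a ratio of 1.08 (0.594 to 1.96), an alternative chosen after seeing the data.

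The model ends at the bound of exon 4, so the ends of single reads are not known. A further 4 reads of replicate 1 ended at exon 5. Models that match the start of an annotated transcript but lack its later junctions held 91.0% of Sec62 reads in replicate 1 (86.4 to 94.4). Of the 5067 genes with at least 20 reads in that library, 7 had a share as high, Sec62 among them, and the median was 0%.

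**Figure D3:**
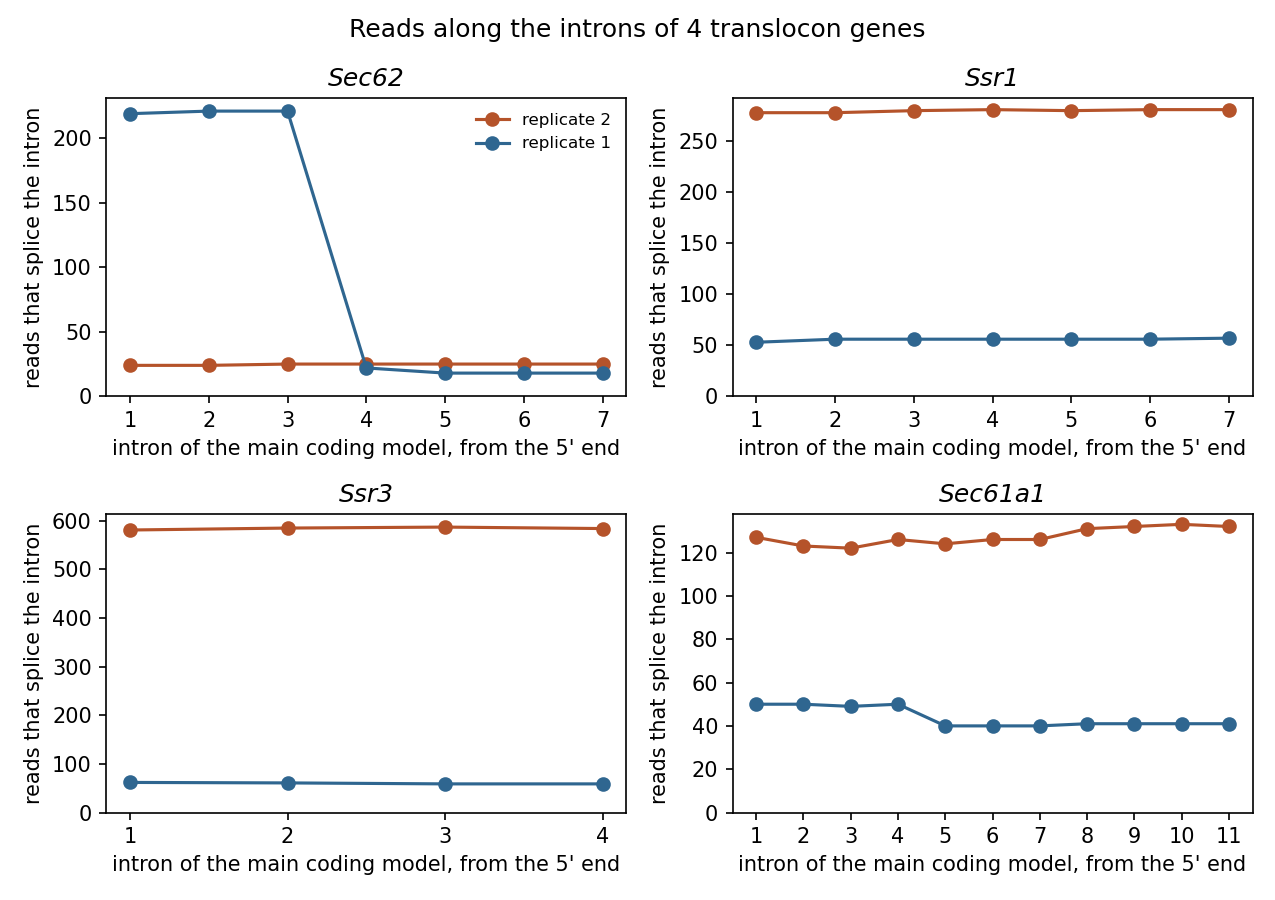
Reads that splice each intron of the main coding model, counted from the 5′ end, in replicate 2 and replicate 1 for Sec62, Ssr1, Ssr3 and Sec61a1. Counts were nearly level along Ssr1 and Ssr3, and those of Sec61a1 in replicate 1 were 50 at intron 1 and 40 at intron 5, while those of Sec62 in replicate 1 dropped to 22 at intron 4 and those in replicate 2 stayed at 24 to 25.

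Over all 9 genes, annotated models held 92.4% of reads in replicate 2 (90.7 to 93.9) and 75.0% in replicate 1 (72.7 to 77.2), beside 74.1% and 78.7% over all annotated genes. Models that lack the later junctions of an annotated transcript held 0.361% in replicate 2 (0.0985 to 0.923) and 14.8% in replicate 1 (13.0 to 16.8), beside 2.92% and 3.49%. This class goes by junctions, and some of its models reach into the last exon of the gene, as those with 1 read of Sec61b in replicate 2 and 8 reads of Ssr4 in replicate 1 did. Of those 8, 3 were on a model of 974 nt with 6 exons, as many as Ssr4-208 has. Whether that model is an incomplete form of an annotated transcript is uncertain. With Sec62 left out, the share was 0.185% in replicate 2 and 0.987% in replicate 1, and annotated models held 92.9% and 87.3%, above the share over all genes in both libraries. Models classed as unspliced held 2.53% in replicate 2 (1.69 to 3.63) and 7.10% in replicate 1 (5.82 to 8.55), beside 3.11% and 5.14%. With the unspliced models of a gene counted as 1 structure whatever their bounds, 18 of 97 distinct structures had reads in both libraries. Single reads made up 38 of the 59 models of replicate 2 and 28 of the 61 of replicate 1.

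**Figure D4:**
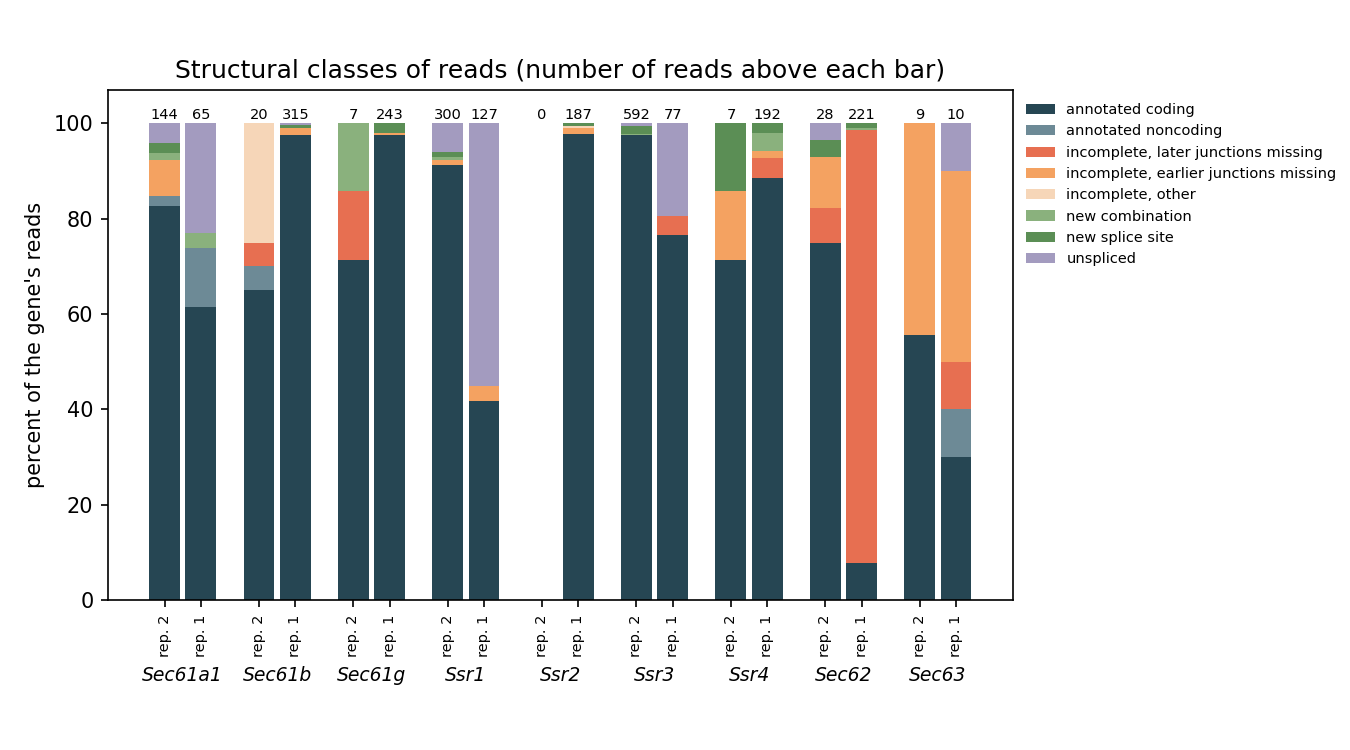
Percent of each translocon gene's reads by structural class, replicate 2 left of replicate 1, with the number of reads above each bar. Replicate 1 shows the reads that lack later junctions in Sec62 and the unspliced reads in Ssr1, and annotated coding models held 3 of the 10 reads of Sec63 there.

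Unspliced reads gathered on Ssr1, whose last exon is 8406 nt long. Unspliced reads made up 18 of its 300 in replicate 2 and 70 of its 127 in replicate 1, or 6.00% (3.59 to 9.32) and 55.1% (46.0 to 63.9). The full Ssr1-201 model had 274 reads in replicate 2 and 53 in replicate 1, so the spliced transcript differed by more between the libraries than the gene total. In replicate 1, 66 of the unspliced reads lay on a model of 4020 nt within the last exon (chromosome 13, 37975724 to 37979743). A model on the opposite strand with the same bounds had 96 reads. Antisense models within Ssr1 held 25 reads in replicate 2 and 100 in replicate 1, beside 18 and 70 unspliced sense reads. Whether the reads keep the strand of the RNA is not given in the sources used here, so unspliced reads of a gene and of its opposite strand cannot be told apart.

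Ssr3 showed the same on a smaller scale. Ssr3-201 had 573 reads in replicate 2 and 59 in replicate 1, and unspliced models at the 3′ end of the gene had 3 and 15, with 0 and 17 antisense reads. An unannotated donor, 142 bases inside intron 1, was used by 7 reads of replicate 2 and by 0 of replicate 1, or 1.19% of the reads that use that acceptor in replicate 2 (0.480 to 2.44). A single read of replicate 2 joined Ssr3 exons to 3 exons outside the gene, in the region of Kcnab1. Sec61a1-201 had 119 reads in replicate 2 and 40 in replicate 1. An unspliced 286-nt model at its 3′ end had 15 reads in replicate 1. All unspliced Sec61a1 reads of replicate 2 came to 6, of which 2 lay at that end. The 286-nt model shares its lower bound (88503605) with Gm44170, an annotated gene on the opposite strand with 0 reads in both libraries. Since it is not known whether reads keep the strand, which of these genes the reads come from cannot be told. Sec61a1-204, an annotated retained-intron transcript of 5 exons, had 0 reads in replicate 2 and 8 in replicate 1. Other models with the same 3′ bound (88513811) had reads in both libraries. In replicate 2 these were 1 read on a 4-exon model, 1 on a 3-exon model and 2 on an unspliced one, and in replicate 1 a 4-exon model had 1.

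Sec61b-201 had 12 reads in replicate 2 and 305 in replicate 1. Its last intron, of 2742 nt, was kept in 6 of 19 reads that cover it in replicate 2 and in 1 of 315 in replicate 1, or 31.6% (12.6 to 56.6) and 0.317% (0.00804 to 1.76). Of the 6, 5 were reads of a single block over exon 3, the intron and exon 4, which the deposited table of replicate 2 classes as an incomplete match and not as unspliced, while the 1 such read of replicate 1 is classed as unspliced. Antisense models at this gene held 9 reads in replicate 2, against 1 in replicate 1. Of the 9, 7 lay over exon 3 and part of this intron (chromosome 4, 47480131 to 47482283), as did the 1 of replicate 1. They share their lower bound with the single block. Since it is not known whether reads keep the strand, the share of Sec61b reads that keep the intron is uncertain.

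The short genes were read mostly in replicate 1, which therefore sets what is known of their forms. Ssr4 was read as Ssr4-208 (4 reads in replicate 2 and 127 in replicate 1) and Ssr4-201 (1 and 43). They differ by the acceptors of exon 2, the 3 bases CAG printed above, and have 519 and 516 coding nt, so the reading frame is kept. Over all models, the nearer acceptor was used by 4 of 5 reads in replicate 2 and by 139 of 189 in replicate 1, or 80.0% (28.4 to 99.5) and 73.5% (66.7 to 79.7). The farther one was used by 1 of 5 and 49 of 189, or 20.0% (0.505 to 71.6) and 25.9% (19.8 to 32.8). With 5 reads in replicate 2, no difference between the libraries in these shares was detectable at this depth. An unannotated exon of 99 nt (chromosome X, 73789055 to 73789153) was entered by 1 of 6 reads in replicate 2 and by 8 of 189 in replicate 1, and 7 of those 8 went on from its far end to the next exon. The last intron, of 229 nt, was kept in 1 of 6 reads in replicate 2 and in 10 of 187 in replicate 1 (5.35%, 2.59 to 9.61).

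Ssr2 was read in replicate 1 alone, as Ssr2-207 (157 reads) and Ssr2-201 (26 reads). Both encode the same 549 coding nt and differ by a 193-nt intron in the 5′ untranslated region (chromosome 3, 88579687 to 88579879), which Ssr2-201 keeps. The intron was kept in 26 of 184 reads that cover it (14.1%, 9.44 to 20.0). Sec61g was read as Sec61g-203 (5 reads in replicate 2 and 221 in replicate 1) and Sec61g-202 (0 and 14), with the same coding exons and donors of exon 1 that lie 4 bases apart in the 5′ untranslated region. The donor of Sec61g-202 took 5.79% of the reads of replicate 1 at that junction (3.20 to 9.52). An unannotated donor 2 bases inside exon 3 was used by 0 of 6 reads in replicate 2 and by 5 of 243 in replicate 1 (2.06%, 0.671 to 4.74), a shift that does not keep the reading frame. Sec63 had too few reads for shares: Sec63-201, of 21 exons, had 5 reads in replicate 2 and 3 in replicate 1. In all, 4 unannotated junctions of the 9 genes had at least 5 reads, of 26 seen.

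The most used model of a gene, the one with most reads over both libraries, was set against all its other models. This was done where each library had at least 10 reads (two-sided Fisher's exact test, Benjamini-Hochberg at 0.05). The choice used the same reads as the test, so the library with more reads of a gene weighs more in it. The test covered 5 of the 9 genes, and called all 5, where 28.7% of 4733 genes were called. The share of the most used model was higher in replicate 2 for Ssr1 (91.3% against 41.7% in replicate 1), Sec61a1 (82.6% against 61.5%) and Ssr3 (96.8% against 76.6%). It was lower in replicate 2 for Sec61b (60.0% against 96.8% in replicate 1) and for Sec62, whose most used model is the incomplete one (7.14% against 89.1%). That model of Sec62 was picked through replicate 1, with 197 reads there and 2 in replicate 2. In replicate 2 alone Sec62-201 led, with 21 of 28 reads. In replicate 1 alone the unspliced reads of Ssr1, 70, outnumbered the 53 of Ssr1-201. Ssr2, Ssr4, Sec61g and Sec63 had under 10 reads in replicate 2 and were not tested. For Ssr1, Ssr3 and Sec61a1 the other models include the unspliced reads given above. Among reads of annotated models alone, Ssr1-201 held 274 of 274 in replicate 2 and 53 of 53 in replicate 1. Ssr3-201 held 573 of 577 and 59 of 59, and Sec61a1-201 held 119 of 122 and 40 of 48. Sec61b-201 held 12 of 14 and 305 of 307. These shares of annotated reads were not tested.

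Other genes of protein entry were described in lists chosen with earlier results of these data known. The lists beyond those of the channel and TRAP held 60 genes, of which 58 were tested. The test called 20 toward replicate 2 and 32 toward replicate 1, and left 6 uncalled, where 66.2% of all genes were called, 30.6% higher in replicate 2 and 35.6% higher in replicate 1. With the length trend removed these counts were 12, 22 and 24, where 42.4% of all genes were called. The same shares of all genes stand beside each list that follows. In the oligosaccharyltransferase, which glycosylates proteins as they enter, calls toward replicate 2 numbered 5 of 12 and calls toward replicate 1 numbered 7, and with the length trend removed they numbered 1 and 5. Rpn2 had 1252 CPM in replicate 2 and 587 CPM in replicate 1, and Dad1, a small subunit, 61.2 and 1572 CPM. With the length trend removed Rpn2 turned toward replicate 1 (log2 ratio 0.62 before, -0.31 after), and Dad1 kept its side (-5.13 and -1.19).

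Of the 5 signal peptidase genes, whose complex removes signal sequences, 1 was called toward replicate 2 and 4 toward replicate 1, and with the length trend removed 2 and 3. Spcs3 had 287 CPM in replicate 2 and 44.4 CPM in replicate 1, and Spcs2 had 74.8 and 439 CPM. Among the 10 genes of the signal recognition particle and its receptor, which bring ribosomes to the membrane, calls toward replicate 2 numbered 3 and calls toward replicate 1 numbered 5, or 2 and 6 with the length trend removed. The receptor subunit Srpr had 378 CPM in replicate 2 and 131 CPM in replicate 1, a log2 ratio of 1.05 that became -0.19 with the length trend removed. The particle subunit Srp14 had 18.7 and 412 CPM, a log2 ratio of -4.87 that became -0.82 with no call. The paralogs Srp54a, Srp54b and Srp54c in this list are near-identical, so their split of reads is uncertain.

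Among partners in membrane protein insertion, replicate 2 was higher in 4 of 7 tested genes and replicate 1 in the other 3. With the length trend removed 2 and 1 were called. The list was led by Ncln (760.4 CPM in replicate 2 and 77.8 in replicate 1) and by Ccdc47 (526 and 173 CPM), whose log2 ratio of 1.13 became 0.03 with no call. In the ER membrane protein complex, an insertase, replicate 2 was higher in 1 of 9 tested genes and replicate 1 in 7. With the length trend removed 0 and 2 were called and 7 were not. Its leading genes were Emc3 (145 CPM in replicate 2 and 180.2 in replicate 1), whose log2 ratio of -0.79 became 0.18 with the length trend removed, and Emc7 (57.8 and 153 CPM). For tail-anchored protein insertion, replicate 2 was higher in 1 of 7 genes and replicate 1 in 4, or 2 and 2 with the length trend removed. Sgta had 282 CPM in replicate 2 and 322 in replicate 1, a log2 ratio of -0.66 that became 0.37 with the length trend removed, and Wrb had 180.3 and 85.2 CPM, a log2 ratio of 0.61 that became 0.17 with no call.

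Of the 8 lumenal chaperones, 5 were called toward replicate 2 and 2 toward replicate 1, or 3 and 3 with the length trend removed. Hspa5, the BiP that Sec63 recruits, had 2443 CPM in replicate 2 and 1028 CPM in replicate 1, and Hsp90b1, the lumenal Hsp90, had 1422 and 623 CPM. With the length trend removed both turned toward replicate 1, with log2 ratios of -0.73 and -0.32. Sec61a2, the paralog of the pore subunit, is named outside the rule for named genes, and had 40.8 CPM in replicate 2 and 14.8 CPM in replicate 1, with no call.

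**Figure D5:**
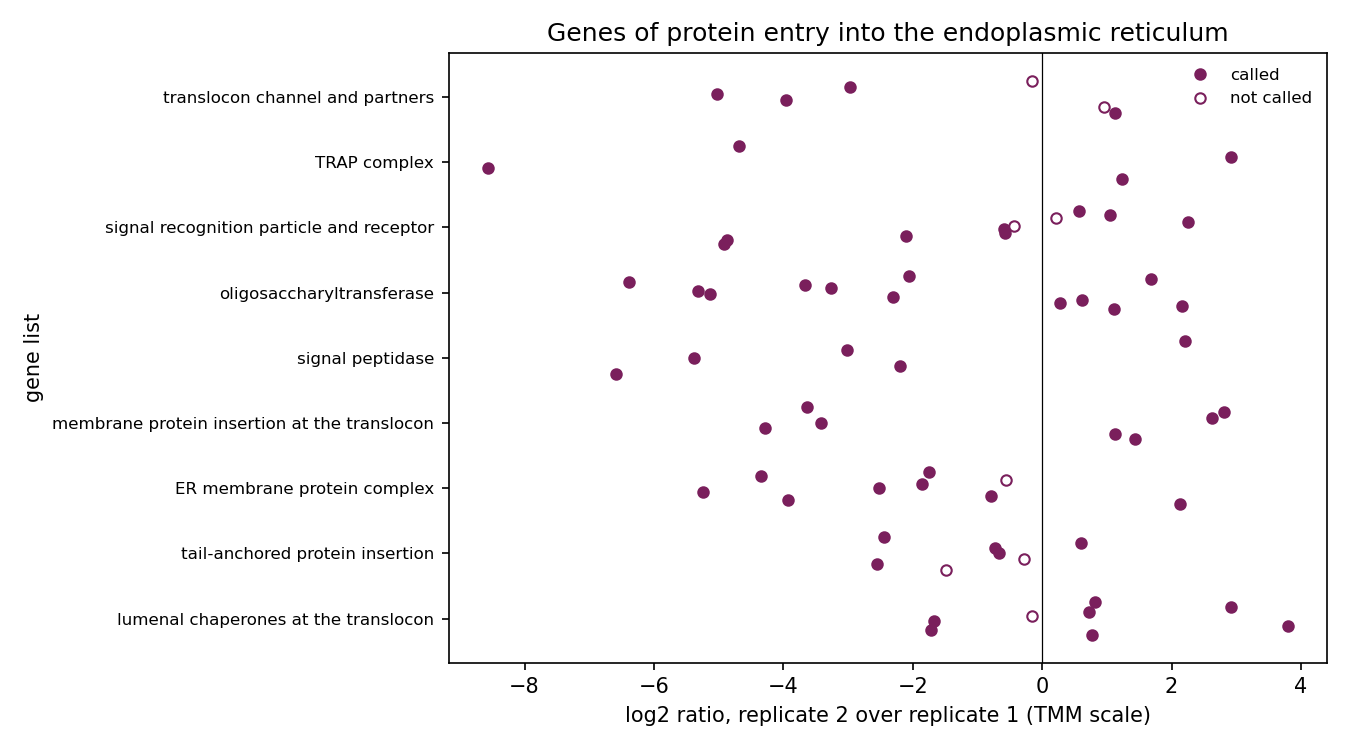
Log2 ratio of replicate 2 over replicate 1 (TMM scale) of the tested genes of 9 lists of protein entry into the endoplasmic reticulum, filled where called and open where not. Within most lists genes lay on both sides of 0; the membrane protein insertion list had 4 genes above 0 and 3 below, and the ER membrane protein complex 1 called above and 7 called below.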

How the data were processed

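The deposited values are raw counts of reads per transcript model, per the file headers, with a matching model annotation for each library; models came from TALON on mm10 with GENCODE M21, made for each library on its own. The sources used here do not give the aligner, the platform or the cDNA preparation. Counts were summed per gene and given as CPM over all reads of a library. Replicate 2 was compared with replicate 1 by exact binomial tests on TMM-scaled sizes (edgeR 4.0.16), with Benjamini-Hochberg adjustment over all genes with at least 10 reads. Log2 ratios used a pseudocount of 0.5 reads, and a lowess curve (span 0.3, genes with at least 20 reads) gave the length trend. Shares carry 95% Clopper-Pearson intervals for counting error only. Whether reads stand for independent molecules is not known, since the cDNA preparation is not given. Both tests were also run on simulated data, and nothing is drawn from that run here. Spliced models were matched between libraries by junctions. DESeq2 1.42.0 size factors were an alternative. The members and lists were chosen with earlier results of these data known. Named genes were all members, the 2 genes of each list with the highest mean CPM, member models with at least 10 reads and unannotated junctions with at least 5.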

Additional observations from a re-analysis of the deposited data

How the results depend on the processing

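No paired analysis was possible because there is 1 group. With library sizes as total counts, genes had a median log2 ratio of 0.46 in place of -0.01, and Sec63 stood at 0.32 in place of -0.15, uncalled in both. With the length trend removed, 5 members in place of 8 and 34 pathway genes in place of 52 were called. Sec61a1 turned to -0.25 and Sec61b to 0.39. That setting also tested 9173 genes in place of 9809, and the cause of these changes was not tested. With annotated models alone Sec62 turned to 0.24 and Sec63 averaged 6.72 CPM, and without its 4-exon model Sec62 turned to 0.11, since that model holds most of its reads in replicate 1. Unspliced reads are 0% by construction once models of 1 exon are left out. Sec63, and Ssr2, Ssr4 and Sec61g in replicate 2, are limited by depth. With 2 libraries, leaving out either leaves the other's value, as given per library.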
